A study of Mus musculus with 6 samples.

Results

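The genes described here encode potassium, calcium, sodium and chloride channels, the hyperpolarization–activated HCN channels, and the TRPC, TRPM and TRPV families of transient receptor potential (TRP) channels. Within these families, which were picked with earlier results of these data known, members were chosen by gene symbol and not by a measured value: symbols in the deposited count table that start with Kcn, Cacn or Clcn, or with Scn, Hcn, Trpc, Trpm or Trpv and a digit. This gave 170 of 22116 named genes. They comprised 93 potassium, 26 calcium, 14 sodium, 9 chloride, 4 HCN and 21 TRP channel genes. A further 3 genes, Trpc4ap, Trpc5os and Kcnrg, share such a symbol but encode no channel subunit and were kept as a class of their own.

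The cells were 4T1, an epithelial cancer cell line of the mouse mammary gland, grown in culture and genetically unaltered in both groups. They received either the vehicle DMSO or 10 µM P3FI–90, a small–molecule inhibitor of the histone demethylase KDM3B, in each case for 24 h. Messenger RNA was sequenced in 3 libraries per group. The labels do not say whether the libraries of a group came from separate cultures, so the p-values measure the spread between these libraries, which may be technical.

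Ion channels are membrane proteins that let selected ions pass down their gradients. Voltage–gated potassium, calcium and sodium channels are best known from nerve and muscle, where a pore subunit senses the membrane potential and auxiliary subunits set how much of it reaches the surface. Epithelial and tumor cells rely more on channels that open without an action potential, such as background (K2P) and calcium–activated potassium channels, TRP cation channels and CLC proteins. The CLC family holds both plasma membrane chloride channels and exchangers of chloride for protons that sit in endosomes and lysosomes.

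The libraries held 31327094 to 37395732 counts on named genes. Normalized counts are counts scaled by edgeR's TMM method to the mean effective library size, and levels between genes are compared as normalized CPM per kilobase of exon, where CPM are counts per 1000000 counts of a library. All 7 markers of mammary epithelial carcinoma were present, with a summed level of 4121 to 4342 CPM in DMSO and 2065 to 2159 CPM after P3FI–90. The markers differed in this: Krt7 had 1114 to 1199 CPM in DMSO and 255 to 270 CPM after P3FI–90, whereas Cdh1 had 423 to 438 and 396 to 409 CPM, and Cldn4 151 to 156 and 146 to 154 CPM. The 8 neuronal markers summed to 0.189 to 0.722 CPM in DMSO and 1.30 to 1.75 CPM after P3FI–90, with Snap25 and Nefl at 0 in all libraries. Among them Elavl3 had 0 to 0.0638 CPM in DMSO and 0.693 to 0.862 CPM after P3FI–90. The 6 leukocyte markers summed to 0.811 to 1.68 CPM and 4.14 to 4.33 CPM, with Adgre1 at 0. Csf1r made up most of this sum, with 0.730 to 1.66 CPM in DMSO and 3.27 to 4.06 CPM after P3FI–90. The general leukocyte marker Ptprc had 0 to 0.615 and 0.166 to 0.747 CPM. The 6 markers of striated muscle summed to 105 to 124 CPM and 53.6 to 55.6 CPM, and the 5 of fibroblasts and endothelium to 37.7 to 38.1 CPM and 30.4 to 33.6 CPM. Tnnt2 made up nearly all of the muscle level, while Myh6 (2.11 CPM), Myh7, Actn2 and Ckm had counts in the first DMSO library only. Pdgfra made up most of the fibroblast and endothelial level, with 35.4 to 36.2 CPM in DMSO and 27.9 to 31.4 CPM after P3FI–90. Dcn, Pecam1 and Cdh5 had at most 0.813 CPM in any library. The part of these shifts in the channel results was not tested. In bulk RNA, fewer cells of a type and less RNA per cell cannot be told apart. Kdm3b itself (ENSMUSG00000038773), whose protein the compound inhibits, had 2851 ± 67.4 normalized counts (SD, n = 3) in DMSO and 3109 ± 55.7 after P3FI–90.

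Most channel genes were near zero in the DMSO libraries. Of the 170 genes, 118 (69.4%) had a mean of at most 0.1 CPM in DMSO, against 9533 of 22116 named genes (43.1%), and 97 had no count in any DMSO library. No count over the 3 DMSO libraries allows a level of up to 0.0284 CPM, or 0.0568 CPM if mates of a pair were counted separately, and covers counting error only. A total of 66 channel genes had no count in any of the 6 libraries. The genes nearest the limit were Kcnj14 at 0.0984 CPM and Kcnk4 at 0.0988 CPM on the inside, and Trpm1 at 0.104 CPM and Cacng4 at 0.110 CPM on the outside.

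The classes differed widely in how many members were detected. Near–zero genes made up 72 of 93 potassium (77.4%), 20 of 26 calcium (76.9%) and 10 of 14 sodium channel genes (71.4%). They made up 11 of 21 TRP (52.4%), 2 of 4 HCN and 3 of 9 chloride channel genes (33.3%). Pore subunits of the voltage–gated classes were mostly near zero. Of 40 voltage–gated potassium pore subunits 33 were near zero, as were 9 of 10 calcium pore subunits and 7 of 10 sodium alpha subunits. The TRPC family was near zero apart from Trpc1, with Trpc4, Trpc6 and Trpc7 at 0 in all 6 libraries. Trpc2 was also at 0, but 98.3% of its 50–base transcript windows occur in at least 1 other gene, most often Xntrpc. Its reads could thus have been counted elsewhere.

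**Figure D1:**
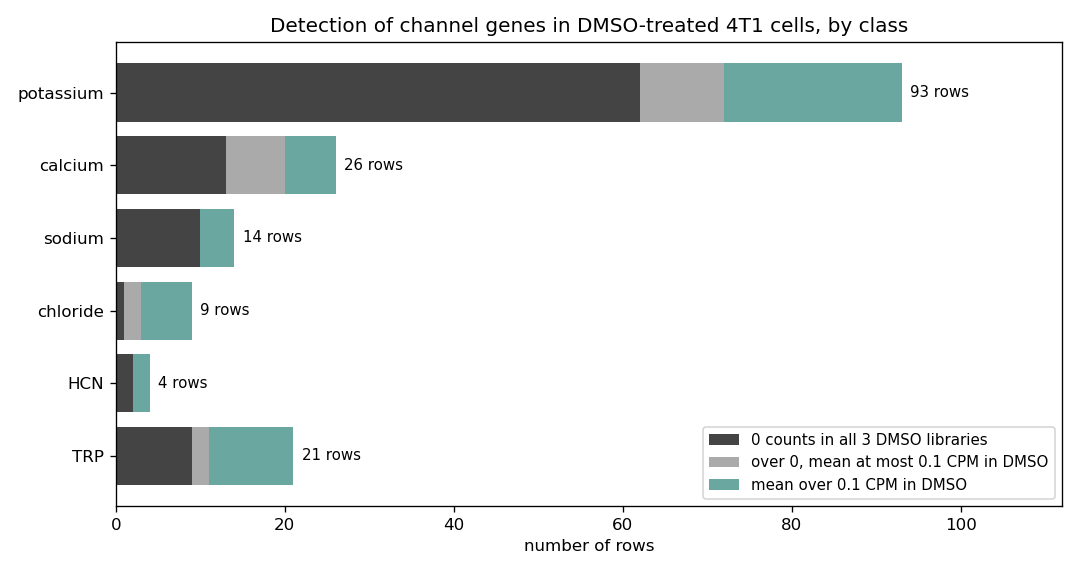
Bars show the number of genes in each channel class, split by their counts in the 3 DMSO libraries: no count in any library, counts with a mean of at most 0.1 CPM, and a mean over 0.1 CPM. Of the potassium channel genes 62 of 93 had no count, whereas 1 of 9 chloride channel genes had none.

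P3FI–90 brought few of the near–zero genes above the limit. Of the 118, 49 had at least 1 count after treatment, but 105 remained at or below 0.1 CPM, and 4 other genes went from above the limit to at or below it. The channel genes together took 0.115% to 0.118% of the counts on named genes in DMSO and 0.152% to 0.156% after P3FI–90, with no overlap between the groups. Expression was concentrated in few genes: the 10 with the most normalized counts in DMSO held 81.5% of the total.

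To compare the groups, edgeR's quasi–likelihood test was fitted over all 12288 genes that passed its filter on low counts, and a gene was called higher or lower at a Benjamini–Hochberg adjusted p under 0.05 over these genes. Only 44 channel genes (25.9%) passed the filter, and the other 126 were too low to test. Of the 44, 13 were higher after P3FI–90, 12 were lower and 19 did not pass the test. The called share was 56.8%, against 79.3% of all genes tested, and the shares of all genes were 39.9% higher and 39.4% lower. The log2 change is the fitted log2 of the fold of P3FI–90 over DMSO, and its median was 0.09 for the channel genes and 0.01 for all genes tested. A log2 change over 1 was reached by 7 higher genes and one under −1 by 4 lower genes, against 12.7% and 10.6% of all genes tested. The groups did not overlap for 27 of the 44 genes, against 81.2% of all genes tested.

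The called share differed with the count level. Of the 28 channel genes that reached a mean of 100 normalized counts in either group, 23 (82.1%) were called, 12 higher and 11 lower, against 83.4% of all tested genes at that level. Of the 16 with fewer, 2 were called, a smaller share than among all tested genes with fewer. Over all tested genes 9749 of 12288 were called, and 8990 of the 10776 that reached a mean of 100. The reason for the smaller share was not tested. Exons of 6 called genes (Cacna1a, Cacnb1, Clcn2, Hcn3, Kcnk1 and Trpc4ap) overlap an opposite–strand transcript by 37 to 711 bases, and those of Kcnab2 a same–strand transcript by 125 bases. Whether counting used the strand is not given in the sources used here, so reads from the overlaps cannot be assigned to 1 gene. A few genes passed the filter through 1 group only: 3 had a mean under 10 normalized counts in DMSO and 2 had one after P3FI–90. Of these only Kcnj14, low in DMSO, was called. For a single gene, 3 libraries per group give an exact two-sided permutation p of 0.1 at best, so each adjusted p rests on the model across all genes.

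**Figure D2:**
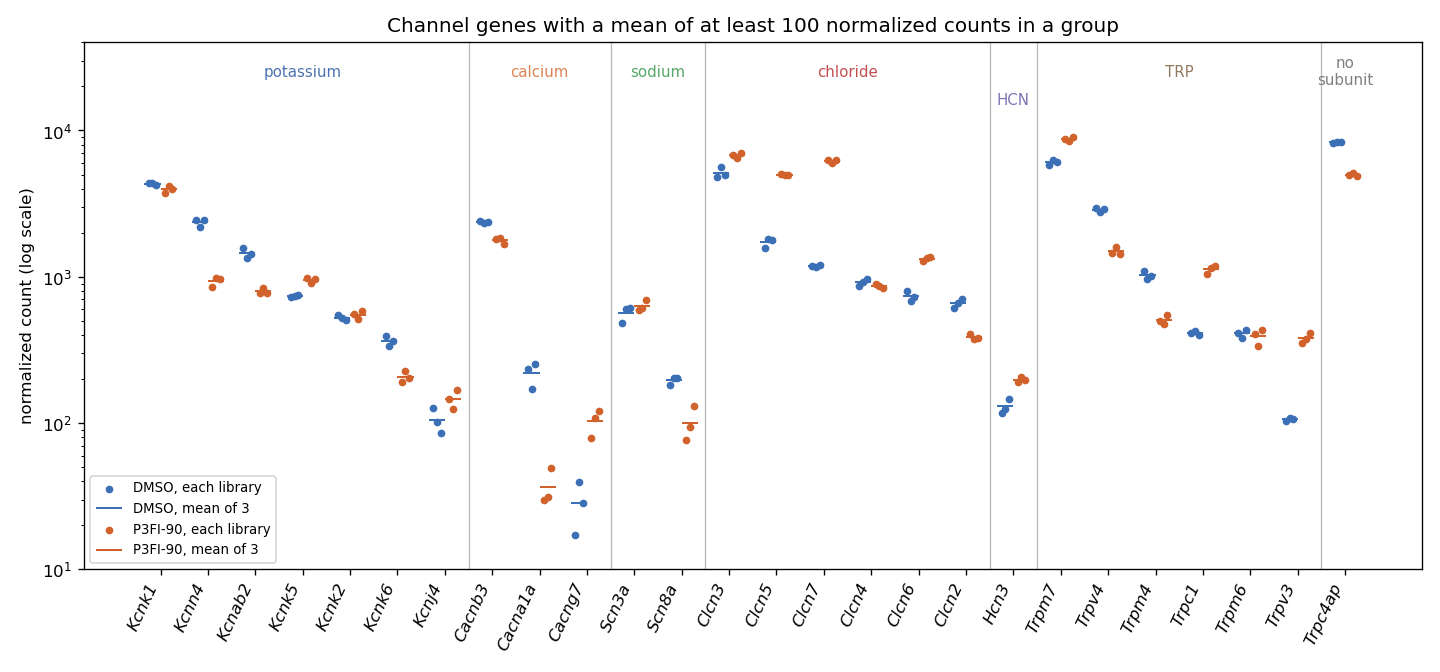
Each point is the normalized count of 1 library on a log axis, and each line the mean of 3 libraries, for channel genes that reached a mean of 100 in either group. Clcn7, Clcn5, Trpc1 and Trpv3 show the P3FI–90 libraries well above the DMSO libraries, and Cacna1a and Kcnn4 show them well below.

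The chloride class was the most detected, and most of its tested members were higher after P3FI–90. Of 6 tested genes 4 rose, 1 fell and 1 did not pass the test, with a median log2 change of 0.62. The called share was 83.3%, close to the 79.3% of all genes tested, where 39.9% were higher and 39.4% lower. Once a trend with length and GC content was removed, 3 chloride genes were higher and 2 lower. The summed level of the class was 29.0 ± 0.962 normalized CPM per kilobase in DMSO and 68.2 ± 1.11 after P3FI–90 (SD, n = 3), a ratio of 2.35. The 4 that rose all encode chloride–proton exchangers of endosomes and lysosomes, a group of 5 in this table with Clcn4.

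Clcn7 (ENSMUSG00000036636), the exchanger of lysosomes, rose the most. It had 1186, 1159 and 1199 normalized counts in the DMSO libraries and 6262, 6035 and 6267 in the P3FI–90 libraries. The lowest treated library was thus far above the highest control, and the log2 change was 2.39 (SE 0.042, adjusted p = 8.82e-15, edgeR). Its share of the chloride class level went from 22.0% to 48.9%, so that it took the lead from Clcn3, which went from 29.7% to 16.5%. Ostm1, the partner subunit that CLC–7 needs for its stability, was looked up after the values were seen. It had 858 ± 56.0 normalized counts in DMSO and 2823 ± 67.9 after P3FI–90, a log2 change of 1.72 (SE 0.057, adjusted p = 3.20e-12, edgeR).

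Clcn5 (ENSMUSG00000004317), the exchanger of early endosomes known for protein uptake in the kidney, had 1566, 1802 and 1795 normalized counts in DMSO and 5032, 4996 and 4974 after P3FI–90. The groups were far apart, with a log2 change of 1.54 (SE 0.054, adjusted p = 5.28e-12, edgeR). Clcn6 (ENSMUSG00000029016), found in late endosomes, had 797, 685 and 724 in DMSO and 1275, 1351 and 1372 after treatment. Its log2 change was 0.86 (SE 0.071, adjusted p = 5.14e-08, edgeR) and the groups did not overlap. Clcn3 (ENSMUSG00000004319), another endosomal exchanger, rose less, from 4815, 5662 and 4967 to 6798, 6451 and 7012 normalized counts. The log2 change of Clcn3 was 0.39 (SE 0.054, adjusted p = 1.22e-05, edgeR). Clcn3 has a long transcript, and once a trend with length and GC content was removed its log2 change was −0.06 with an adjusted p of 0.327. Clcn4, with 919 normalized counts in DMSO and 866 after P3FI–90, did not pass the test at an adjusted p of 0.270 from edgeR, and had a log2 change of −0.23 with an adjusted p of 0.00752 once that trend was removed.

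Clcn2 (ENSMUSG00000022843), a channel of the plasma membrane that opens on hyperpolarization, moved the other way. It had 609, 664 and 700 normalized counts in DMSO and 406, 376 and 384 after P3FI–90, with no overlap. Its log2 change was −0.76 (SE 0.091, adjusted p = 2.87e-06, edgeR). Exons of Clcn2 overlap those of Fam131a and Polr2h on the opposite strand by 85 and 82 bases. Polr2h also fell (log2 change −0.59, adjusted p = 2.04e-05, edgeR), whereas Fam131a had a log2 change of 0.02 (adjusted p = 0.908, edgeR). The part of such reads in the Clcn2 value was not tested. The muscle channel gene Clcn1 was near zero in DMSO.

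The sequences upstream of these genes were examined because several members rose together. RefSeq windows of the GRCm38.p6 assembly were available for 32 of the 44 tested genes (128 of all 170), and the 250 bases before each start were searched on both strands for 5 short motifs. These were CACGTG, the E–box core read by many basic helix–loop–helix factors, TCACGTGA, which contains it, TGACGTCA, TGACTCA and CCAAT. The motifs were chosen after the values were seen. CACGTG was present for 4 of 10 higher genes with a window (40%), 1 of 9 lower genes (11.1%) and 2 of 13 others (15.4%). Among the exchangers of endosomes and lysosomes, Clcn6 and Clcn7 had it, and so did Clcn4, which did not pass the test. Clcn3 and Clcn5, which rose, had it in none of their windows. Over all tested channel genes with a window it was present for 7 of 32 (21.9%), against 6.86% of 27025 genes with a window, expressed or not. Some genes have several windows, and by window the shares were 15.1% of 53 for tested channel genes and 6.02% of 32851 for all. No test was run on these shares. TCACGTGA was present for 2 higher genes and for no lower gene, against 0.907% of all genes. TGACGTCA was found for 1 tested gene (1.77% of all genes), TGACTCA for 2 (5.16%) and CCAAT for 11 (37.5%). These are matches of letters and not measured binding sites. The windows of the 4 higher genes with CACGTG, and of Kcnn4 as the lower gene that has it, are shown 5′ to 3′ on the strand of the gene, and the capitals mark CACGTG.
Clcn7, chr17:25133141-25133390, plus strand, with the motif starting 15 bases before the start: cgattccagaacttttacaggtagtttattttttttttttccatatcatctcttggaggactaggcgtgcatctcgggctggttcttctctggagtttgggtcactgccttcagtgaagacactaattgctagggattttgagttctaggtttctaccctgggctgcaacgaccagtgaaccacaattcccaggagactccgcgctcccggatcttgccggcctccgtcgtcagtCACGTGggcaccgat
Clcn6, chr4:148038814-148039063, minus strand, with motifs starting 48 and 25 bases before the start: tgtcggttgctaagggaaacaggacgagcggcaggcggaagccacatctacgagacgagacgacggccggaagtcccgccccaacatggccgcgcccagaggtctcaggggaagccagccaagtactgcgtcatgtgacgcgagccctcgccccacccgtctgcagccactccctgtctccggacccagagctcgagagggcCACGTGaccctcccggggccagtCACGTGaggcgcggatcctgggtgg
Trpm7, chr2:126876262-126876511, minus strand, with the motif starting 25 bases before the start: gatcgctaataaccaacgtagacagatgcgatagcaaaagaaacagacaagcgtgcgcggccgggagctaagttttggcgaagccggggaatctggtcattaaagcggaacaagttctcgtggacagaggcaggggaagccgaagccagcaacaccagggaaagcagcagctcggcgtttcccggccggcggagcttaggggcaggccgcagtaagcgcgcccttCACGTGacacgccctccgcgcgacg
Trpv3, chr11:73267270-73267519, plus strand, with the motif starting 67 bases before the start: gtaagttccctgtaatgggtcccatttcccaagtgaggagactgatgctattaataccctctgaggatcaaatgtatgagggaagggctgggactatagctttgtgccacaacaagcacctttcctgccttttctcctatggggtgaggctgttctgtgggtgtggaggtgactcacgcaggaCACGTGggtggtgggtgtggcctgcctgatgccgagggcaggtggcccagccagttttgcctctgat
Kcnn4, chr7:24370013-24370262, plus strand, with the motif starting 133 bases before the start: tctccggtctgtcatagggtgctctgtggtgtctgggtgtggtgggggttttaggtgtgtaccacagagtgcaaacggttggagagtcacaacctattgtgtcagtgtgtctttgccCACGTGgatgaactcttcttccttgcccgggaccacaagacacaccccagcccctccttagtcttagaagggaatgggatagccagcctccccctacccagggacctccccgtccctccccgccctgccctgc
In Clcn7 the motif lies in 1 of 2 listed windows. TCACGTGA occurs once in the Clcn6 window and once in the Trpm7 window.

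TRP channels pass cations in response to temperature, stretch, lipids or calcium, and were split between rises and falls. Of 8 tested genes 3 rose, 2 fell and 3 did not pass the test, with a median log2 change of 0.23. The summed class level was 41.8 ± 0.430 normalized CPM per kilobase in DMSO and 41.3 ± 0.762 after P3FI–90, a ratio of 0.988, which was 1.15 when libraries were scaled by total counts alone. Within this sum the leading genes changed places. Trpv4 went from 48.1% to 25.3% of the class level and Trpm7 from 36.6% to 53.2%.

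Trpm7 (ENSMUSG00000027365), a magnesium– and zinc–permeable channel fused to a kinase, had 5794, 6286 and 6102 normalized counts in DMSO and 8723, 8438 and 8972 after P3FI–90. All treated libraries lay above all controls, with a log2 change of 0.52 (SE 0.039, adjusted p = 1.78e-08, edgeR). Trpc1 (ENSMUSG00000032839), a subunit linked to calcium entry after store depletion, had 412, 423 and 399 in DMSO and 1053, 1144 and 1179 after treatment. Its log2 change was 1.45 (SE 0.076, adjusted p = 3.72e-10, edgeR). Trpv3 (ENSMUSG00000043029), a warmth–sensitive channel of skin keratinocytes, rose from 103, 108 and 107 normalized counts to 351, 378 and 415. This was the largest log2 change among the tested TRP genes, 1.84 (SE 0.14, adjusted p = 1.60e-08, edgeR).

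Trpv4 (ENSMUSG00000014158), which responds to cell swelling and stretch, fell from 2937, 2759 and 2918 normalized counts to 1448, 1590 and 1438. The groups were well separated and the log2 change was −0.94 (SE 0.055, adjusted p = 1.13e-09, edgeR). Trpm4 (ENSMUSG00000038260), a calcium–activated channel for monovalent cations, fell from 1100, 973 and 1005 to 498, 476 and 549, with a log2 change of −1.02 (SE 0.082, adjusted p = 3.78e-08, edgeR). Trpm6, the close relative of Trpm7 that also carries a kinase, had 411 normalized counts in DMSO and 393 after P3FI–90 and did not pass the test (adjusted p = 0.615, edgeR), but had a log2 change of −0.37 with an adjusted p of 0.00957 once the length and GC trend was removed. The cold and menthol receptor Trpm8 had no count in DMSO and 7, 7 and 10 counts after P3FI–90. With a floor of 3 counts over the DMSO group, and the treated counts taken as exact, this was at least 6.99-fold higher. With a floor of 6 counts it was at least 3.50-fold. Its exons overlap an opposite–strand transcript, 4930453O03Rik, by 388 bases.

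**Figure D3:**
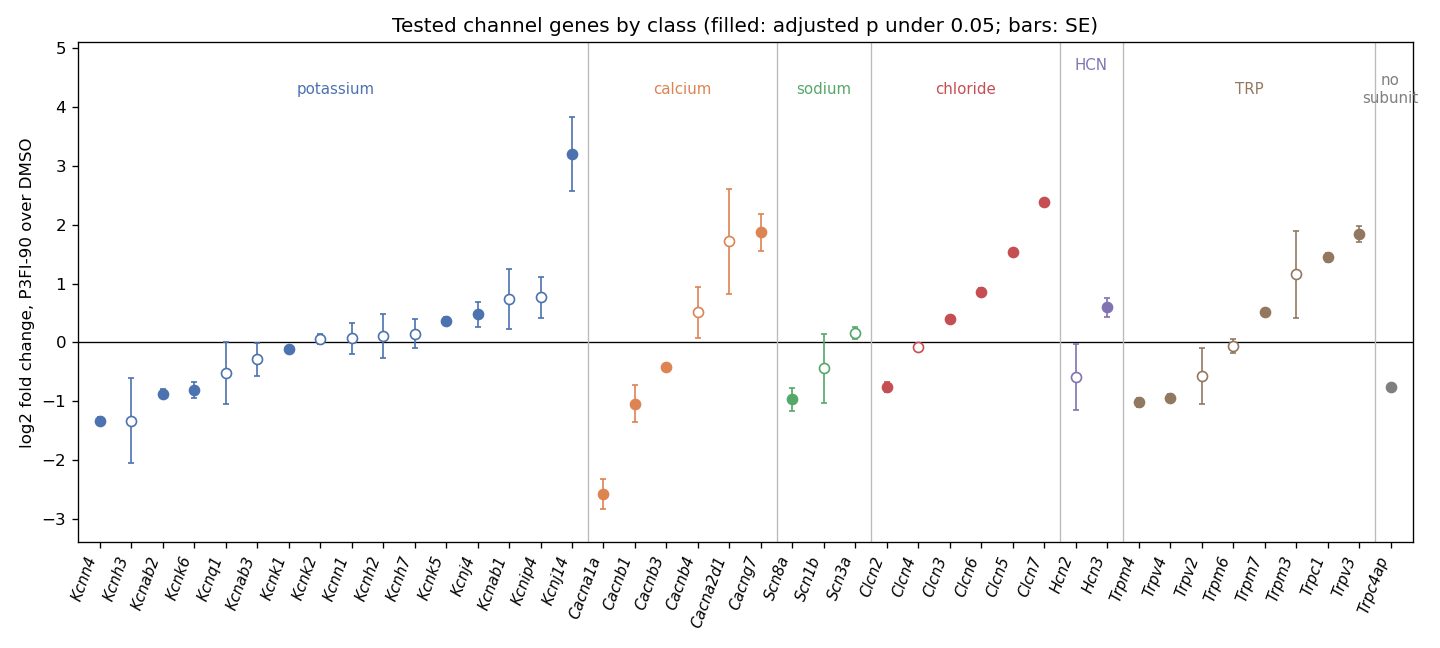
The log2 change of tested channel genes, P3FI–90 over DMSO, is plotted by class and ordered by size, with bars for the SE and filled symbols for an adjusted p under 0.05 from edgeR. In the chloride class 4 of 6 genes are filled and above 0, and in the potassium class most are open.

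Potassium channel genes were the largest class and the one with the lowest share tested. Of 93 genes 17 were tested, of which 3 rose, 4 fell and 10 did not pass the test, with a median log2 change of 0.07. With libraries scaled by total counts alone, which raised the median of all genes to 0.23, the split was 6 higher and 3 lower. The summed class level was 92.0 ± 1.75 normalized CPM per kilobase in DMSO and 78.6 ± 3.41 after P3FI–90, a ratio of 0.854, or 0.991 with total counts. None of the 5 tested voltage–gated pore subunits passed the test, Kcnh2, Kcnh3, Kcnh7 and Kcnq1 among them. These named genes had means under 100 normalized counts in both groups. The SE of their log2 changes was 0.24 to 0.72, so small changes could be missed. Kcnh3 had 18.2, 24.1 and 17.4 normalized counts in DMSO and 16.8, 6.29 and 0 after P3FI–90. It was called lower without the first P3FI–90 library (log2 change −2.56 against −1.33 with all libraries, adjusted p = 0.0173, edgeR), with limma–voom (−2.35, adjusted p = 0.0233) and with limma on log2(CPM + 1) (adjusted p = 0.0421). Of the 5, 2 were called without the first P3FI–90 library and 1 with total counts.

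The K2P channels of the Kcnk genes, which carry background potassium current, held most of the class. Kcnk1 (ENSMUSG00000033998), known as TWIK–1, made up 60.0% of the potassium level in DMSO and 64.5% after P3FI–90. It had 4349, 4401 and 4226 normalized counts in DMSO and 3757, 4199 and 3975 after P3FI–90. The groups barely separated, with a log2 change of −0.12 (SE 0.044, adjusted p = 0.0222, edgeR). This small difference turned to 0.09 with total counts (adjusted p = 0.0678). It lost its call without the first DMSO library (adjusted p = 0.0520), without the first P3FI–90 library (0.128) and after removal of the length and GC trend (0.667). Kcnk5, known as TASK–2 and opened by alkaline conditions, rose from 727, 738 and 756 to 988, 914 and 972 normalized counts, with an adjusted p of 1.68e-04 from edgeR. Kcnk6 (TWIK–2) fell from 392, 336 and 362 to 192, 226 and 204, with an adjusted p of 3.71e-05 from edgeR. Kcnk2, the mechanosensitive TREK–1, had 526 normalized counts in DMSO and 549 after treatment, with an adjusted p of 0.515 from edgeR, and with total counts its log2 change was 0.28 with an adjusted p of 0.00984.

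Kcnn4 (ENSMUSG00000054342), the intermediate–conductance calcium–activated channel KCa3.1, had the largest fall among the potassium genes that passed the test. It had 2428, 2173 and 2456 normalized counts in DMSO and 853, 976 and 967 after P3FI–90. The highest treated library was below the lowest control by a wide margin, with a log2 change of −1.34 (SE 0.066, adjusted p = 2.08e-10, edgeR). Its share of the potassium level went from 14.2% to 6.61%. Kcnab2 (ENSMUSG00000028931), a beta subunit of voltage–gated potassium channels, fell from 1583, 1351 and 1438 to 779, 835 and 781 normalized counts. Its log2 change was −0.87 (SE 0.070, adjusted p = 4.14e-08, edgeR), with no overlap between the groups.

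Inward rectifiers, which hold the resting potential near the potassium equilibrium, were near zero in 12 of 15 genes. Kcnj14 (ENSMUSG00000058743), known as Kir2.4, had the largest log2 change of the tested channel genes but few counts. It had 7, 0 and 4 counts in DMSO and 37, 31 and 50 after P3FI–90, with a log2 change of 3.21 (SE 0.63, adjusted p = 3.03e-04, edgeR). Its mean was 3.72 normalized counts in DMSO and 37.2 after P3FI–90, so it passed the filter through the treated libraries only. Its log2 change and adjusted p thus depend on a group near zero. Of its 50–base windows 30.8% also occur in at least 1 other gene, most often Gm5522, so its counts are uncertain. Kcnj4 (Kir2.3) had 126, 102 and 85.7 normalized counts in DMSO and 146, 124 and 168 after treatment, and the groups overlapped. Its adjusted p of 0.0486 from edgeR lay at the threshold, and was 0.0915 without the second DMSO library, 0.176 without the third, 0.0935 without the first P3FI–90 library and 0.177 without the third.

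Calcium channel genes were represented almost entirely by 1 auxiliary subunit. Of 6 tested genes 1 rose, 3 fell and 2 did not pass the test, and the summed class level was 18.5 ± 0.205 normalized CPM per kilobase in DMSO and 14.4 ± 0.521 after P3FI–90, a ratio of 0.781, or 0.906 with total counts. Cacnb3 (ENSMUSG00000003352), a cytoplasmic beta subunit that brings pore subunits to the membrane, held 91.4% of this level in DMSO and 87.6% after treatment. It fell from 2412, 2338 and 2376 normalized counts to 1820, 1838 and 1676, with a log2 change of −0.42 (SE 0.052, adjusted p = 4.02e-06, edgeR). Cacna1a (ENSMUSG00000034656), which encodes the P/Q–type pore Cav2.1 and was the only calcium pore gene tested, fell the most. It had 235, 170 and 254 normalized counts in DMSO and 29.9, 31.5 and 49.0 after P3FI–90. The ranges were far apart, and the log2 change was −2.58 (SE 0.25, adjusted p = 2.66e-07, edgeR).

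Cacng7 (ENSMUSG00000069806), a gamma subunit also known as a partner of AMPA receptors, rose from 17.2, 39.7 and 28.6 normalized counts to 79.5, 109 and 121. All treated libraries lay above the controls, with a log2 change of 1.87 (SE 0.32, adjusted p = 8.51e-05, edgeR). Cacnb1 fell from 101, 91.5 and 64.3 to 25.3, 54.8 and 44.1 normalized counts, with a log2 change of −1.04 (SE 0.31, adjusted p = 0.00718, edgeR). Cacna2d1, an alpha2delta subunit, had 11, 0 and 0 counts in DMSO and 13, 16 and 13 after treatment, and its adjusted p was 0.0894 from edgeR. Its DMSO counts were all in the first library, the only one with Myh6 and Actn2, and their part in this value was not tested. Without that library its DMSO counts were 0 and 0, and it passed the filter through the treated libraries only. The log2 change of 6.73 and adjusted p of 0.00170 from edgeR then depend on a group at 0. The T–type pore gene Cacna1i had 8, 0 and 3 counts in DMSO and 8, 22 and 17 after P3FI–90. It was not tested with all libraries. Its adjusted p from edgeR was 0.0150 without the first DMSO library and 0.0288 without the first P3FI–90 library. Both values depend on a DMSO group near zero.

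Sodium channel genes were few and low. Of 4 tested genes 1 rose, 1 fell and 2 did not pass the test, and the class level went from 2.62 ± 0.250 to 3.43 ± 0.0815 normalized CPM per kilobase, a ratio of 1.31. Scn8a (ENSMUSG00000023033), the neuronal pore subunit Nav1.6, fell from 182, 202 and 205 normalized counts to 76.7, 94.4 and 130, with no overlap between the groups and a log2 change of −0.97 (SE 0.20, adjusted p = 5.62e-04, edgeR). Scn3a made up 49.6% of the sodium level in DMSO and 42.1% after treatment, and Scn8a 13.6% and 5.29%.

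Scn3a (ENSMUSG00000057182), the embryonic neuronal subunit Nav1.3, had 567 normalized counts in DMSO and 632 after P3FI–90 and did not pass the test (log2 change 0.16, adjusted p = 0.175, edgeR). With total counts the log2 change was 0.37 (adjusted p = 0.00462), in the same direction, and with the length and GC trend removed it turned to −0.35 (adjusted p = 0.00699). Of the 50–base windows of Scn3a, 6.49% also occur in at least 1 other gene. The most frequent is Scn2a, a close copy that had no count in DMSO and 6, 0 and 10 counts after treatment. Among HCN genes, Hcn3 (ENSMUSG00000028051) held 85.0% of the class level in DMSO and 92.1% after P3FI–90. It rose from 118, 125 and 147 normalized counts to 190, 207 and 197, with a log2 change of 0.60 (SE 0.16, adjusted p = 0.00341, edgeR). Its exons overlap those of Pklr on the opposite strand by 711 bases, and Pklr had no counts.

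Of the 3 genes without a channel subunit, only Trpc4ap (ENSMUSG00000038324) was tested, an adaptor protein of a ubiquitin ligase named for its binding to TRPC4. It was the channel–named gene with the most normalized counts in DMSO, 8262, 8390 and 8315, and fell to 4925, 5106 and 4853 after P3FI–90. Its log2 change was −0.75 (SE 0.034, adjusted p = 9.11e-11, edgeR). Trpc4 itself had no count in any library. Kcnrg had 11, 14 and 8 counts in DMSO and 4, 0 and 7 after treatment, and Trpc5os 6, 6 and 4 counts and 4, 42 and 13.

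Set side by side, the class ratios of summed level after P3FI–90 to DMSO ran from 0.781 for calcium through 0.854 for potassium, 0.988 for TRP, 1.31 for sodium and 1.40 for HCN to 2.35 for chloride. The same ratio over all named genes was 0.751. With total counts the class ratios were 0.906, 0.991, 1.15, 1.52, 1.63 and 2.73 in that order, and 0.871 over all named genes. The sum over all 170 genes was 212 ± 0.491 normalized CPM per kilobase in DMSO and 224 ± 3.81 after treatment. No test was run between classes, since most classes rest on 1 or a few genes. The tested channel genes had a median exon length of 5667 bases, against 4439 bases over all genes tested, and the higher ones had 5835 bases and the lower ones 5346 bases.

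**Figure D4:**
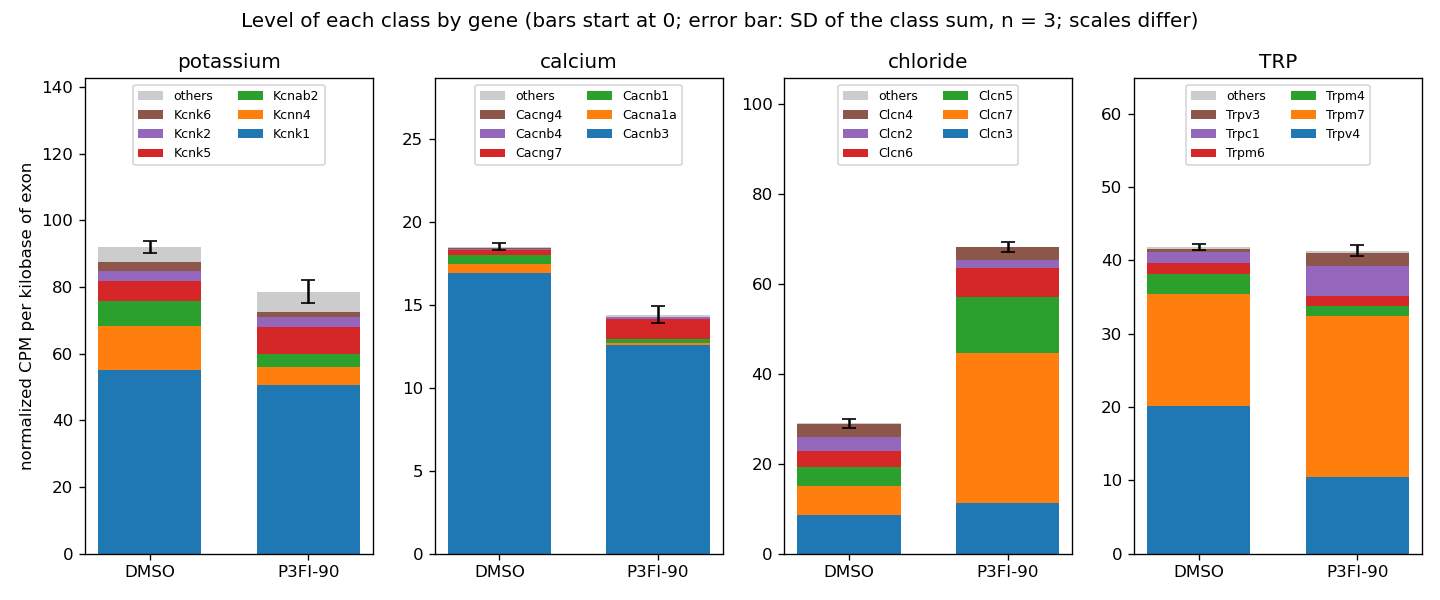
Stacked bars give the summed level of the potassium, calcium, chloride and TRP classes in normalized CPM per kilobase of exon, by gene, with the SD of the class sum over 3 libraries and a separate scale for each class. Chloride goes from 29.0 to 68.2 with the growth of the Clcn7 segment, whereas the TRP sum is 41.8 and then 41.3 while Trpv4 shrinks and Trpm7 and Trpc1 grow.

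Among genes with no count in 1 group, values stayed at a few reads. Besides Trpm8, the members at 0 in DMSO with the most counts after P3FI–90 were Scn2a with 16 counts over the group, Kcnq5 with 15, Hcn4 with 9 and Cacna2d2 with 8, a count that Kcnj10 shared. With a floor of 3 counts for DMSO, the first 4 were at least 4.66-fold, 4.37-fold, 2.62-fold and 2.33-fold higher. These bounds take the counts of the other group as exact and leave out their error. For Kcnq5 13 of the 15 counts were in 1 library, and for Hcn4 and Cacna2d2 all were in 1. In the other direction, Kcnj9 had 12 counts in DMSO and none after treatment, at least 4.58-fold lower, and Cacng4 had 11 and none, at least 4.20-fold lower. With a floor of 6 counts these bounds were 2.33, 2.19, 1.31 and 1.17 for the genes at 0 in DMSO, and 2.29 and 2.10 for Kcnj9 and Cacng4. Kcnh1, a voltage–gated potassium channel studied in tumors, had 2 counts in DMSO and 22 after P3FI–90, and the ratio was 9.61 (exact 95% counting interval 2.36 to 84.3). Of the 22 counts, 14 were in 1 library. The interval takes each count as a separate read and would be wider if mates were counted.

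Other ion channels, pumps and carriers were measured for comparison, from a list of 108 genes written from general knowledge, and the examples were chosen after their values were seen. Of the 69 tested 27 were higher, 32 were lower and 10 did not pass the test, with a median log2 change of −0.13. Of all genes tested 39.9% were higher and 39.4% lower, 79.3% together, so calls were common in general. With total counts alone 34 were higher and 21 lower. In the lysosome, where CLC–7 works, the calcium channel gene Mcoln1 rose from 1054 ± 23.1 to 3274 ± 135 normalized counts (log2 change 1.63, SE 0.052, adjusted p = 2.32e-12, edgeR). Tpcn1, Tpcn2 and Tmem175, also genes of lysosomal channels, fell. Tpcn1 had a log2 change of −0.55 (adjusted p = 1.06e-05, edgeR), Tpcn2 of −0.51 (0.00435) and Tmem175 of −1.22 (9.19e-06). The ATP–gated channel gene P2rx7 rose from 89.0 ± 9.28 to 1286 ± 69.2 normalized counts, a log2 change of 3.85. Vdac1, the main pore of the outer mitochondrial membrane, fell from 18964 ± 437 to 6140 ± 119, a log2 change of −1.63. Among genes of store–operated calcium entry, Stim1 (0.73) and Orai2 (0.84) rose, Stim2 (−0.62) and Orai3 (−0.50) fell, and Orai1 (0.13) did not pass the test, at an adjusted p of 0.375 from edgeR. The sodium pump subunit gene Atp1b1 rose by a log2 change of 1.29 (adjusted p = 5.46e-12, edgeR).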

How the data were processed

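The authors deposited read counts for each gene of 6 RNA–seq libraries (4T1 with DMSO or P3FI–90, 3 per group), as whole numbers without normalization. Per the labels' processing notes, CASAVA, HISAT2, StringTie and the GRCm39 build were used. Counting tool, annotation and strandedness are not given in the sources used here. In every library more genes had 2 counts than 1 (278 to 389 against 81 to 131), so whether both mates of a pair were counted is unknown. Of 22401 rows, 285 were assembled transcripts without a gene name (0.483% to 0.556% of counts) and were left out. No library pair within a group agreed within sampling noise (chi–square per gene 5.44 to 8.43).

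Genes were filtered with filterByExpr and compared with edgeR 4.0.16 (TMM, quasi–likelihood test, R 4.3.3) over 12288 genes with Benjamini–Hochberg adjustment and no covariate. The common biological coefficient of variation was 0.0648. The study names limma, which was run as an alternative. For genes at 0 in a group the fold was computed with 3 counts in that group as the floor and the other group's count taken as exact. Intervals cover counting error only, and floors only that of the group at 0. Exon lengths, overlaps and shared 50–base windows came from GENCODE M21, which holds all 170 genes, and promoter windows from RefSeq.

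The gene families and the lists were chosen with earlier results of these data known. Named were the 10 largest rises and falls with at least 100 normalized counts and no overlap, the highest member of each subclass, up to 5 genes at 0 in either group with the most counts in the other, and genes without a channel subunit. Other genes named were chosen after their values were seen. Alternatives were DESeq2 1.42.0 (size factors or test), total counts, upper quartile, other filters, limma 3.58.1, a replicate block, halved counts, each library left out, a fold threshold, other limits for near zero and, added after seeing the data, assembled transcripts kept or a length and GC trend removed. The edgeR test was checked on simulated data. A few genes are counted in the totals but not reported here by name or in the plots.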

Additional observations from a re-analysis of the deposited data

How the results depend on the processing

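Across the 18 settings that refit all genes, 24 to 28 channel genes were called, and 23 or more of the 25 calls were kept, none with a reversed direction. Leaving out each library in turn gave 12 to 16 higher and 11 to 13 lower genes. For calcium genes these fits gave 1 to 3 higher genes, the most without the first DMSO library, where Cacna1i and Cacna2d1 were added. Both had few or no counts in the DMSO libraries that were left. Requiring an absolute log2 fold change over 1 left 7 channel genes higher and 4 lower. By class this left 1 potassium gene higher and 1 lower, 0 sodium genes lower, 2 chloride genes higher and 0 lower, 0 HCN genes higher and 1 TRP gene lower. With total counts 6 potassium genes were higher and 2 sodium genes were higher, and 21 genes of the other channels, pumps and carriers were lower. With limma–voom 2 calcium genes were higher. With the length and GC trend removed 2 sodium, 2 chloride and 3 TRP genes were lower. Kcnip4 was called higher in 6 settings (adjusted p 0.0183 to 0.0495). Trpm8, with no count in DMSO, was called higher without a filter (adjusted p 0.0125, edgeR). Trpc5os was called higher without the first P3FI–90 library (0.0119) and Kcnrg lower without the third (0.0330). The cause of these differences was not tested. The signs of Clcn3 (−0.06, trend removed), Kcnk1 (0.09, total counts) and Scn3a (−0.35, trend removed) reversed. The near–zero count was 97 for no count in DMSO, 103 at 0.03 CPM, 138 at 1 CPM and 115 to 117 without each DMSO library.

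The replicate numbers were not treated as pairs. Libraries with the same number deviated from their group means with correlations of −0.0214, 0.015 and 0.00491, and libraries correlated best with their own number for 1 of 3 numbers. With the replicate block 12 channel genes were higher and 12 lower, and Kcnj4 lost its call (adjusted p = 0.0725, edgeR).

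The 126 untested genes did not pass the filter on low counts, and 66 of them had no count in any library, so no difference was tested there.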
